A study of Mus musculus with 42 samples.

Results

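Metallothioneins are the small, cysteine-rich proteins that bind zinc and copper in the cell, and the genes Mt1 and Mt2 encode the 2 forms found in most mouse tissues. Their transcription is known to respond to zinc through the metal-sensing factor MTF1, and also to glucocorticoids, to inflammatory cytokines and to oxidative stress. The expression of both genes was described here in TA (tibialis anterior) muscle, a fast muscle of the lower hindlimb, in all 42 RNAseq libraries of the study. They are 2 of the 13809 genes in the deposited table, and they were chosen by the measured difference between immobilized and basal muscle, which for Mt2 ranked near the top in every genotype. The levels in immobilized against basal muscle are therefore a description without a test, while denervation and the genotypes were compared by tests. These tests are not independent of the selection: it used the basal WT libraries with which denervated muscle was compared, and the basal and immobilized libraries of every genotype, though in another contrast. Only the 4 denervated libraries had no part in it.

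The libraries come from 4-month-old male C57BL/6J mice in 2 sets. Set 1 holds WT mice, Sesn1SkM-Tg mice, which carry a human Sesn1 cDNA under the muscle creatine kinase promoter, and Sesn2SkM-Tg mice, which carry a human Sesn2 transgene switched on by a muscle creatine kinase-driven tetracycline transactivator. Muscle was taken from basal mice of each genotype and from mice whose right hindlimb had been immobilized for 3 days. Set 2 holds WT and Sesn1KO (Sesn1-/-) mice in the same states, and WT muscle 3 days after denervation, the removal of a piece of the sciatic nerve. Basal muscles came from mice without any atrophy protocol. There were 4 libraries in a group, except 3 for immobilized WT muscle of set 1 and immobilized Sesn1SkM-Tg muscle. Where the labels number replicates they do not say which animal each came from, so p-values measure only the spread between these libraries. The comparisons of a set share its WT libraries, and no value was compared across sets, because the sets differ gene by gene less (a median of 0.0437 on the log2 scale between set means) than their WT basal groups do (0.177), as values adjusted per gene between the sets would.

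Levels are given as normalized counts, not log-transformed. They summed to between 722430 and 1276769 in a library, and the read depth behind them is unknown, so no counting error is given. The 11 fast-fibre markers (among them Acta1, Ckm and Myh4) summed to between 69304 and 205339 in every library, while the 6 slow-fibre markers stayed between 11.2 and 432. Sesn1 was lower in basal Sesn1KO than in basal WT muscle, with a remainder of 8.41 to 10.0 normalized counts, against 22.5 to 29.7 (limma adjusted p = 0.00011). In the libraries labelled immobilized Sesn1KO it was at 37.3, 27.7, 19.4 and 19.6 in replicates 1 to 4, against 30.7 to 53.1 in immobilized WT muscle, and the difference did not pass (-0.66, limma adjusted p = 0.069). Replicate 1 lay within the WT range, and the group as a whole is not separated from WT muscle by this check. All differences between immobilized Sesn1KO and WT muscle therefore rest on the labels, and those of Mt1 and Mt2 are also given without replicate 1.

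Mt1 (ENSMUSG00000031765, chromosome 8:94179082-94180327, plus strand) and Mt2 (ENSMUSG00000031762, chromosome 8:94172664-94173568, plus strand) lie side by side in GRCm38. Each has 3 exons. The principal transcripts hold 549 and 511 bases of exon, with 183 coding bases each, of which 145 are identical between the genes (79.2%). No 30-base stretch of either transcript is found in the other, and 4 of the 482 stretches of Mt2 (0.83%) are also found in Pip5k1a, so reads of that length can tell the members apart. An antisense gene, Gm45774, overlaps Mt2 and was not used here. The library kit does not mark strand, so reads of Mt2 and of its antisense partner cannot be told apart. The windows from 250 bases before to 30 bases after the RefSeq start sites (GRCm38.p6, plus strand) are shown because they carry matches to the element through which zinc is known to act on these genes. Capitals mark the metal response element core, TGCACNC or TGCGCNC on either strand.

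Mt1, chr8:94178839-94179118: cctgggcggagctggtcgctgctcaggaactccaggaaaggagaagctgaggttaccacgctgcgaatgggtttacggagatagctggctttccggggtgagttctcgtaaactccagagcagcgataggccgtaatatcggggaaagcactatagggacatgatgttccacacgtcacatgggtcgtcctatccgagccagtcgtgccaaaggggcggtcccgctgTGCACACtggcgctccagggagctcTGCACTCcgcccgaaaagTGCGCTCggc

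Mt2, chr8:94172368-94172647: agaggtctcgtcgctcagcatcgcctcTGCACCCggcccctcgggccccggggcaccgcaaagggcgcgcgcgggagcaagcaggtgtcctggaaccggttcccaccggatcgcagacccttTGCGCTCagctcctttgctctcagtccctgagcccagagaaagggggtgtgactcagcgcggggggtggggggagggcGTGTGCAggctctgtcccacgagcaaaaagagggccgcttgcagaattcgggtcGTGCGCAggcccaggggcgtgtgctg

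The Mt1 window holds 3 matches to this core, at positions -23, 2 and 20 counted from the start site as 0. The Mt2 window holds 4, at positions -223, -128, -50 and 4 counted from its start site as 0. At least 1 match is found in 24.1% of the 32851 RefSeq windows of the same length, at least 3 in 1.73% and at least 4 in 0.405%. A core of the antioxidant response element (TGACNNNGC, either strand) occurs once in the Mt2 window, at position -79, and not in that of Mt1, against 11.5% of all windows. Neither window holds the full glucocorticoid response element or the STAT site TTCNNNGAA, which occur in 0.00913% and 7.83% of windows. A match is a description of these letters, and no match says nothing of sites outside the windows.

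In basal muscle both genes were expressed at a low level. Mt2 was measured at 1.58, 1.18, 2.07 and 1.18 normalized counts in the 4 WT libraries of set 1 and at 1.26, 1.37, 3.74 and 1.12 in those of set 2. Mt1 was measured at 2.53, 2.65, 4.03 and 6.44 in set 1 and at 5.67, 5.21, 6.08 and 5.47 in set 2. The Mt1 values of set 2 differed by a factor of 1.17 between the lowest and the highest library, the narrowest range of any group. Immobilization was accompanied by far higher values of both genes. In immobilized WT muscle, Mt2 was at 133, 71.2 and 176 in set 1 and at 53.7, 152, 120 and 82.7 in set 2. Mt1 was at 81.0, 75 and 129 in set 1 and at 53.5, 96.4, 108 and 64.5 in set 2. All immobilized WT libraries lay above all basal libraries of their set.

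The group means of immobilized and basal WT muscle stood in a ratio of 84.5 for Mt2 and 24.3 for Mt1 in set 1, and of 54.5 and 14.4 in set 2. On the log2(value + 1) scale, which understates the change of genes with low values, set 1 gave differences of 5.60 for Mt2 and 4.32 for Mt1, and set 2 gave 5.15 and 3.57. Among the 13705 genes tested in set 1 these were the first and the third largest increases, and among the 13629 genes of set 2 they ranked 2 and 10. Of the genes tested, 29.3% in set 1 and 33.9% in set 2 passed in limma between immobilized and basal WT muscle (adjusted p under 0.05 with a log2 difference of 0.25 or more in either direction).

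**Figure D1:**
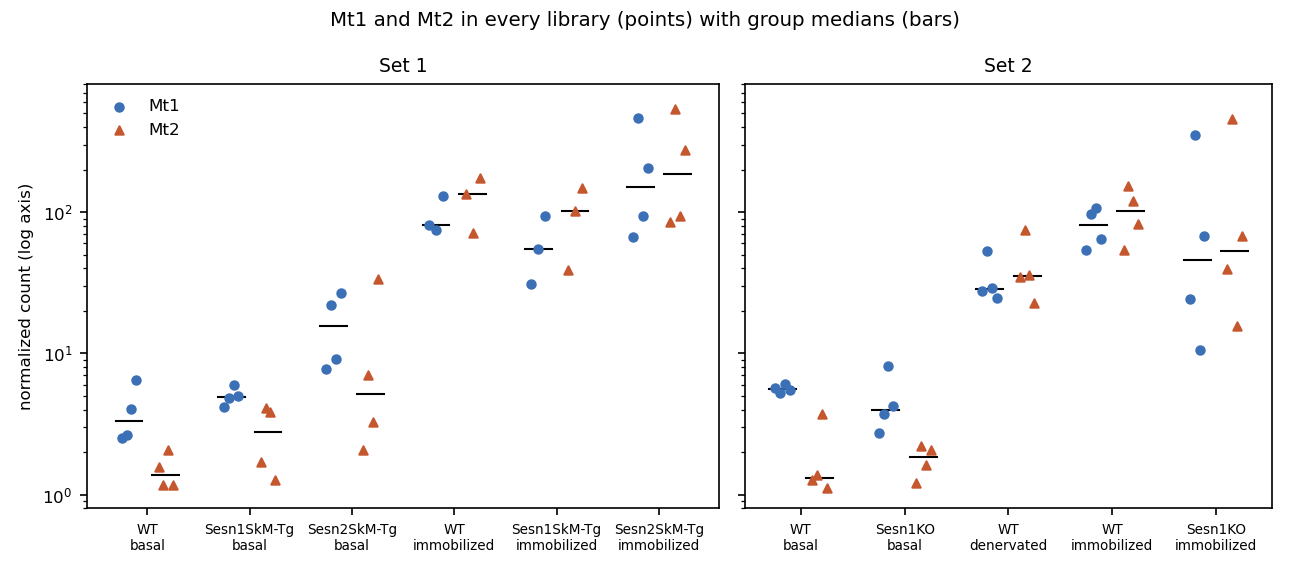
Normalized counts of Mt1 (circles) and Mt2 (triangles) in each library on a log axis, by group, with set 1 on the left, set 2 on the right and a bar at each group median. Basal libraries sit between 1.12 and 33.6, and immobilized libraries between 10.6 and 533, with denervated WT muscle between 22.7 and 74.6.

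Both genes were also higher after immobilization in each mutant. In Sesn1SkM-Tg muscle, Mt2 was at 1.71, 4.13, 3.86 and 1.27 in the basal state and at 39.2, 102 and 149 after immobilization, and Mt1 at 4.15, 4.81, 5.94 and 4.96 against 30.9, 54.9 and 93.3. In Sesn2SkM-Tg muscle, Mt2 was at 2.08, 7.08, 3.29 and 33.6 against 85.7, 533, 94.6 and 277, and Mt1 at 7.72, 21.9, 9.16 and 26.7 against 66.3, 465, 93.8 and 207. In Sesn1KO muscle, Mt2 was at 1.21, 2.20, 1.63 and 2.08 against 39.5, 455, 15.5 and 67.4, and Mt1 at 2.74, 3.70, 8.13 and 4.27 against 24.2, 349, 10.6 and 67.6. Basal and immobilized libraries did not overlap in any genotype for either gene. Immobilized Sesn2SkM-Tg replicate 2 held the highest value of each gene in set 1, and immobilized Sesn1KO replicate 2 in set 2. The log2 differences between immobilized and basal muscle were 4.60 for Mt2 and 3.22 for Mt1 in Sesn1SkM-Tg (34.7% of genes differed), 4.59 and 3.36 in Sesn2SkM-Tg (30.7%) and 4.62 and 3.25 in Sesn1KO muscle (37.1%). Their ranks among the increases were 2 and 13, 3 and 12, and 3 and 17. In immobilized Sesn1KO muscle the values spanned a factor of 29.4 for Mt2 and 33.0 for Mt1, the widest ranges of any group. Without its replicate 1 the differences were 4.86 and 3.60, and without its replicate 2 they were 3.70 and 2.33.

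Markers of fast fibres and of other cell types also differed between immobilized and basal muscle. The fast-fibre markers were lower without overlap in WT muscle of set 1 (99181 to 119968 against 151729 to 193861). The same held for Sesn1SkM-Tg (94894 to 139530 against 166168 to 173714) and Sesn2SkM-Tg muscle (92174 to 126340 against 176404 to 205339). It also held for WT muscle of set 2 (146202 to 158042 against 169200 to 188411). The Sesn1KO ranges overlapped (121153 to 174640 against 158787 to 190159). The 7 macrophage markers in the table (Cd68, Csf1r and others, without Adgre1) summed to between 197 and 380 in immobilized and 36.7 and 59.3 in basal WT muscle of set 1, to 148 to 412 against 27.2 to 55.3 in Sesn1SkM-Tg and to 89.2 to 255 against 42.1 to 54.8 in Sesn2SkM-Tg muscle, without overlap. They overlapped in WT muscle of set 2 (110 to 217 against 31.0 to 141) and in Sesn1KO muscle (60.3 to 335 against 48.0 to 74.4). In WT muscle of set 2 only basal replicate 3, at 141, reached the immobilized range, and the other basal libraries reached 59.2. The Schwann cell markers were higher without overlap in the 3 genotypes of set 1 (in WT muscle 12.5 to 35.4 against 4.86 to 10.2). In set 2 their medians were lower, with overlapping ranges (12.1 against 23.1 in WT and 12.7 against 19.5 in Sesn1KO muscle). The endothelial markers were lower without overlap in both genotypes of set 2 (150 to 237 against 242 to 336). In set 1 they were higher without overlap in Sesn1SkM-Tg (253 to 283 against 161 to 245) and Sesn2SkM-Tg muscle (266 to 359 against 151 to 193). Their ranges overlapped in WT muscle of set 1 (227 to 266 against 169 to 231). The fibroblast markers were higher without overlap in Sesn1SkM-Tg muscle alone (1061 to 3073 against 452 to 693). There, and in no other genotype, the adipocyte markers were lower without overlap (2.86 to 4.47 against 4.74 to 41.5). The part of these markers in the rise of Mt1 and Mt2 was not tested.

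In order of the group medians, basal muscles of the 3 genotypes of set 1 came first, from 1.38 (WT) through 2.78 (Sesn1SkM-Tg) to 5.18 (Sesn2SkM-Tg) for Mt2. Each range overlapped the next, and a gap followed to the immobilized groups at 102 (Sesn1SkM-Tg), 133 (WT) and 186 (Sesn2SkM-Tg), which overlapped one another. For Mt1 the order was the same, with medians of 3.34, 4.88 and 15.5 in basal and 54.9, 81.0 and 150 in immobilized muscle, but basal Sesn2SkM-Tg muscle overlapped neither neighbour. In set 2, Mt2 had medians of 1.32 in basal WT, 1.85 in basal Sesn1KO, 35.2 in denervated WT, 53.4 in immobilized Sesn1KO and 101 in immobilized WT muscle. The only gap was between the basal and the other groups, as it was for Mt1 (3.98 in basal Sesn1KO, 5.57 in basal WT, then 28.3, 45.9 and 80.4 in the same order as for Mt2).

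Denervation was examined as the other atrophy model, in WT muscle of set 2. Mt2 was at 34.6, 74.6, 35.8 and 22.7 normalized counts in denervated muscle and Mt1 at 27.6, 52.6, 29.1 and 24.7. In each of the 4 libraries both genes were above every basal WT library of the set. Mt2 rose by 3.85 on the log2 scale (standard error 0.62, 95% interval 2.55 to 5.15, limma adjusted p = 2.1e-05), from 1.87 ± 1.25 to 41.9 ± 22.6 (mean ± SD, n = 4 libraries per group). Mt1 rose by 2.32 (standard error 0.62, interval 1.04 to 3.61, limma adjusted p = 0.0031), from 5.61 ± 0.369 to 33.5 ± 12.9. Ratios of the means were 22.4 and 5.98. Denervation changed 55.5% of the 13629 genes tested and raised 27.8%, and Mt2 and Mt1 ranked 24 and 105 among the increases. In exact two-sided permutation tests over the libraries p was 0.029 for each gene, the smallest that 4 libraries against 4 can give, and 0.10 after adjustment over 14 such tests.

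Denervated and immobilized WT muscles of set 2 shared the same basal libraries, so their values are only set side by side. The denervated range of Mt2 (22.7 to 74.6) overlapped the immobilized one (53.7 to 152), and that of Mt1 (24.7 to 52.6) ended just below it (53.5 to 108). The fast-fibre markers summed to between 69304 and 90726 in denervated muscle, against 169200 to 188411 in basal and 146202 to 158042 in immobilized WT muscle. Other lists were lower in denervated than in basal WT muscle without overlap, with 133 to 168 against 262 to 336 for the endothelial, 3.44 to 7.09 against 15.6 to 26.0 for the Schwann cell, 18.7 to 42.4 against 43.2 to 119 for the slow-fibre and 5.30 to 7.36 against 8.28 to 13.5 for the satellite cell markers. The macrophage markers summed to between 47.4 and 124 in denervated muscle, within the basal range (31.0 to 141). The upper end of that range was replicate 3 alone, and the other basal libraries reached only 59.2. Denervated replicates 1 to 4 were at 124, 105, 67.3 and 47.4. The part of these differences in the metallothionein values was not tested. In bulk muscle, fewer cells of a type and less RNA per cell cannot be told apart.

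The next question was whether sestrin gain or loss was accompanied by other metallothionein levels. In basal Sesn2SkM-Tg muscle, each of the 4 libraries was above the 4 basal WT libraries of set 1 for both genes, with 7.72 to 26.7 against 2.53 to 6.44 for Mt1 and 2.08 to 33.6 against 1.18 to 2.07 for Mt2. The ratio of means was 4.19 for Mt1 and 7.66 for Mt2. Neither gene passed the threshold in limma with the pseudocount of 1. The log2 difference was 1.72 for Mt1 (standard error 0.47, interval 0.74 to 2.69, adjusted p = 0.053) and 1.65 for Mt2 (standard error 0.61, interval 0.38 to 2.93, adjusted p = 0.18), in a comparison in which 2.5% of genes passed. Exact permutation p was 0.029 for each gene, or 0.10 when adjusted over the 14 tests. How many of all genes separated without overlap was not counted, but 2136 of the 13705 tested had an unadjusted limma p under 0.05. Replicate 4 held the highest value of each gene, and without it the differences were 1.43 for Mt1 and 0.94 for Mt2 (limma adjusted p = 0.13 and 0.39). The call for Mt1 turned with the settings, since it passed with a pseudocount of 0.1 or 0 (limma adjusted p = 0.034 for each), without Sesn2SkM-Tg replicate 1 (0.042) and without WT replicate 4 (0.022). Macrophage marker sums overlapped between these groups (42.1 to 54.8 and 36.7 to 59.3), and so did those of the slow-fibre markers (65.1 to 345 and 21.8 to 143), while the adipocyte markers were lower without overlap in Sesn2SkM-Tg muscle (1.71 to 3.69 and 3.96 to 37.3). The part of these markers was not tested.

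Sesn1SkM-Tg and WT muscle differed by 0.34 for Mt1 (interval -0.63 to 1.31) and 0.51 for Mt2 (interval -0.77 to 1.79), where 0.0292% of genes passed. Sesn1KO and WT muscle differed by -0.29 for Mt1 (interval -1.58 to 0.99) and 0.02 for Mt2 (interval -1.28 to 1.32), where 0.147% of genes passed. The limma adjusted p was 0.9997 or higher for each, and all these groups overlapped.

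After immobilization, each mutant group overlapped the WT group for both genes. Against immobilized WT muscle, the log2 difference of Mt1 was -0.76 in Sesn1SkM-Tg (interval -1.88 to 0.37), 0.76 in Sesn2SkM-Tg (interval -0.29 to 1.81) and -0.61 in Sesn1KO muscle (interval -1.89 to 0.68). That of Mt2 was -0.49 (interval -1.96 to 0.98), 0.65 (interval -0.73 to 2.02) and -0.51 (interval -1.80 to 0.79). None passed in limma (adjusted p from 0.44 to 0.9996), beside 0.0073%, 2.94% and 0.947% of all genes. In immobilized Sesn1KO muscle the arithmetic mean lay above that of WT muscle (ratios of 1.40 for Mt1 and 1.41 for Mt2) while the mean log2 value lay below it. Without replicate 2 the log2 differences were -1.53 for Mt1 and -1.43 for Mt2 (limma adjusted p = 0.071 and 0.11). Without replicate 3 they turned to 0.11 and 0.17, and without replicate 1 they were -0.26 for each gene. Exact permutation p lay between 0.30 and 0.63 for these 6 comparisons. For the pair with 3 libraries against 3 it could not go below 0.10.

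The difference between mutant and WT muscle in the response to immobilization is given as a description, because it is formed from the contrasts that chose the genes, and a choice of genes with a large rise in every genotype works against finding such a difference. For Mt1 it was -1.10 in Sesn1SkM-Tg (interval -2.58 to 0.39), -0.96 in Sesn2SkM-Tg (interval -2.39 to 0.47) and -0.32 in Sesn1KO against WT muscle (interval -2.13 to 1.5). For Mt2 it was -0.998 (interval -2.95 to 0.95), -1.01 (interval -2.89 to 0.87) and -0.53 (interval -2.36 to 1.31). Without replicate 1 of immobilized Sesn1KO muscle its differences were 0.03 for Mt1 and -0.28 for Mt2. Of all genes tested, 0.0%, 0.0073% and 0.022% passed. In the Sesn1SkM-Tg comparison no gene passed in limma and 401 had an unadjusted p under 0.05.

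**Figure D2:**
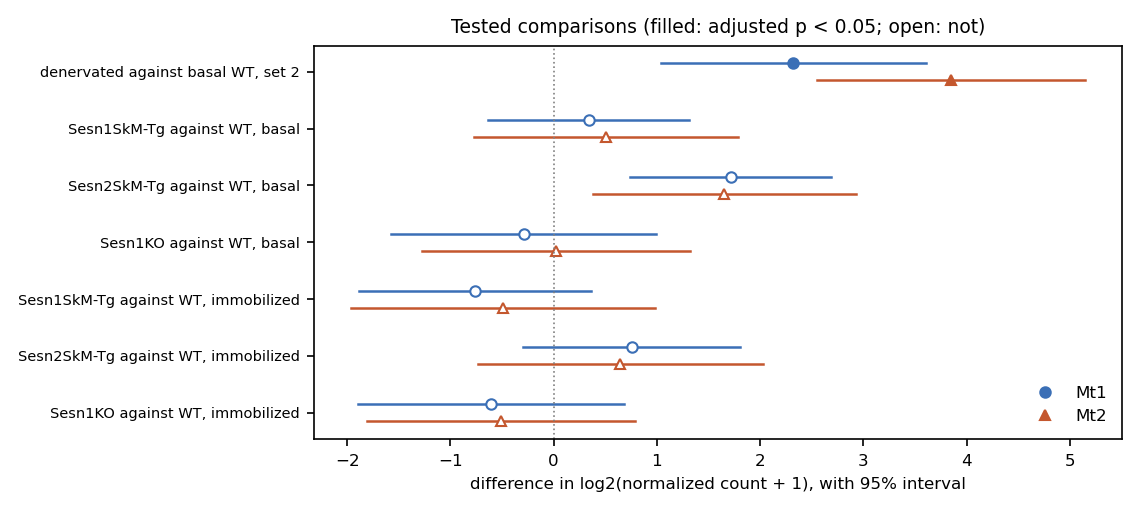
Differences in log2(normalized count + 1) of Mt1 (circles) and Mt2 (triangles) in the 7 tested comparisons, with 95% intervals from limma on the horizontal axis and filled symbols where the adjusted p was under 0.05. Only the symbols of denervation, 2.32 and 3.85, are filled, and the intervals of basal Sesn2SkM-Tg against WT muscle lie above 0 with open symbols.

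The levels of the members relative to each other were compared per kilobase of principal transcript. In basal muscle Mt1 was the more abundant, with Mt2 to Mt1 ratios of 0.196 to 0.672 in WT muscle of set 1, 0.219 to 0.661 in WT muscle of set 2, 0.276 to 0.924 in Sesn1SkM-Tg and 0.216 to 0.639 in Sesn1KO muscle. In Sesn2SkM-Tg muscle 3 libraries had ratios of 0.289 to 0.385, and replicate 4 had 1.35. In all immobilized libraries Mt2 was the more abundant per kilobase, with ratios of 1.02 to 1.77 (WT, set 1), 1.08 to 1.7 (WT, set 2), 1.36 to 2.00 (Sesn1SkM-Tg), 1.08 to 1.44 (Sesn2SkM-Tg) and 1.07 to 1.75 (Sesn1KO). In denervated muscle the ratios were 1.35, 1.52, 1.32 and 0.985. The log2 ratio in denervated muscle lay 2.02 above that of basal WT muscle, and the groups did not overlap (exact permutation p = 0.029, adjusted p = 0.20 over 7 tests of the ratio). For the genotypes, the log2 ratio differed from WT muscle by -0.11 to 0.45, with exact permutation p of 0.49 to 0.80. Without replicate 1 of immobilized Sesn1KO muscle, its log2 ratio differed from that of WT muscle by 0.015, against 0.11 with it. A ratio within a library does not depend on the scale of the library. Its level, though not its difference within a set, does depend on the transcript lengths used and on any adjustment made per gene.

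**Figure D3:**
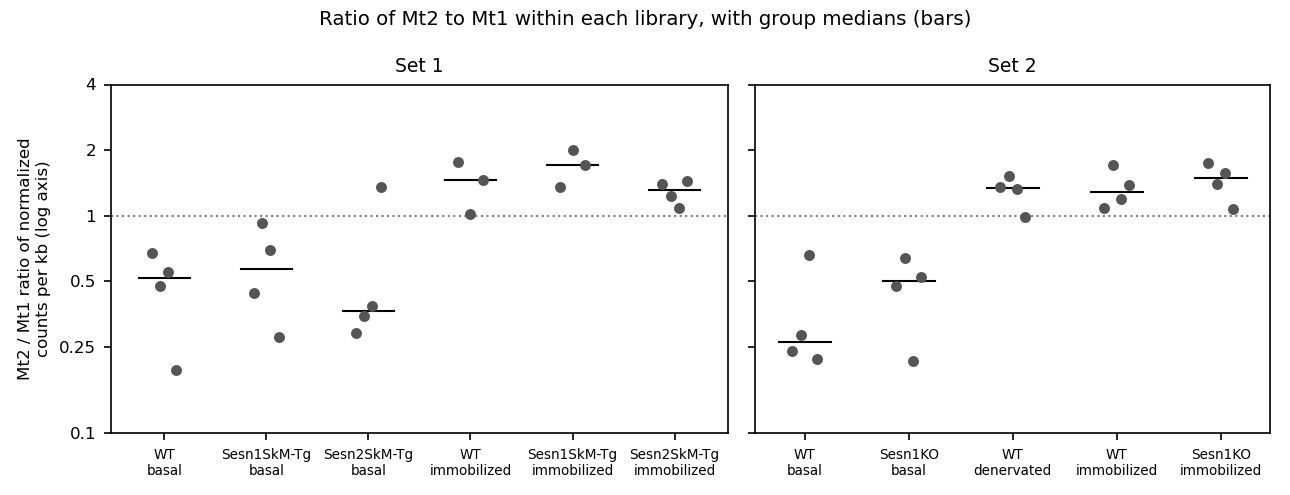
Ratio of Mt2 to Mt1 normalized counts per kilobase in each library (points) on a log axis, by group, with a bar at each median and a dotted line at equal levels. Basal libraries lie below 1 except 1 Sesn2SkM-Tg library at 1.35, and immobilized libraries lie between 1.02 and 2.00.

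Within the groups, the genes varied together from library to library. The deviations of Mt1 and Mt2 from their group means of log2(value + 1) correlated with Pearson's r = 0.88 and Spearman's rho = 0.83 over 42 libraries (permutation of libraries within groups, p = 1e-05 for each, the smallest that 100000 permutations can give). Without the 2 libraries farthest from the median, immobilized Sesn1KO replicates 2 and 3, r was 0.81. It was 0.84 in set 1 and 0.93 in set 2. Libraries share their depth and scale, which enters both genes.

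**Figure D4:**
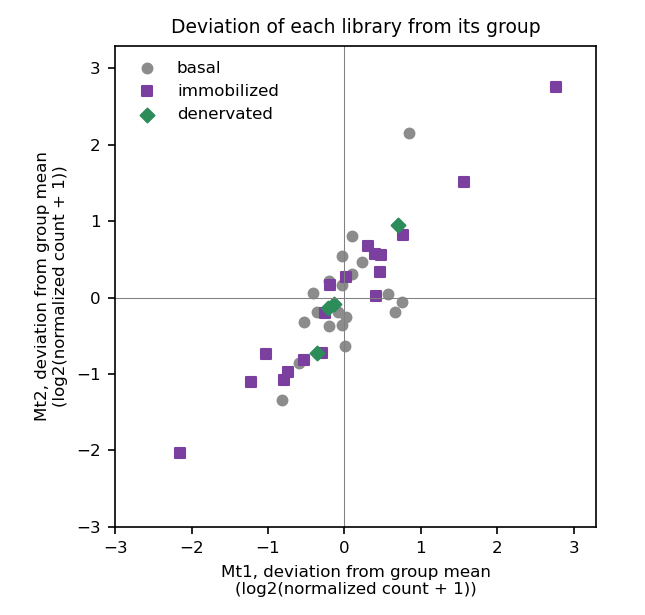
Deviation of each of the 42 libraries from its group mean of log2(normalized count + 1) for Mt1 (horizontal axis) and Mt2 (vertical axis), with basal, immobilized and denervated libraries as circles, squares and diamonds. The points follow the diagonal (r = 0.88), and the points at both ends are immobilized Sesn1KO replicates 2 and 3.

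The genes whose library-to-library deviations were most like the mean of the 2 members were sought among 12199 genes, as a description. Card14, a scaffold protein of NF-kB signalling, had r = 0.89 over the 42 libraries. Sbno2, a transcriptional co-regulator induced by cytokines, had 0.83, Hmox1, the heme-degrading heme oxygenase, 0.82, the zinc and iron importer Slc39a14 0.81 and the lysosomal protease Lgmn 0.81. In denervated muscle Hmox1 was measured at 48.2 to 70.9 normalized counts against 4.99 to 5.53 in basal WT muscle (log2 difference 3.31, limma adjusted p = 1.0e-07). Slc39a14 was at 26.3 to 33.2 against 12.3 to 16.1 (log2 difference 0.997, limma adjusted p = 0.026). It did not pass in any of the 5 comparisons of immobilized with basal muscle, yet in immobilized Sesn1KO muscle it ranged from 11.7 to 93.8. Over the means of the 11 groups, which mostly separate basal from atrophying muscle, the most similar genes were Zfyve19 (r = 0.987), the proteasome subunits Psmb4 (0.983) and Psma7 (0.980), the translation repressor Eif4ebp1 (0.983) and the lysosomal GTPase Arl8a (0.982).

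Of the marker lists, the mean log2 deviations within the groups correlated with those of the metallothioneins at r = 0.63 for the macrophage markers, 0.46 for the neutrophil markers and -0.58 for the fast-fibre markers over 42 libraries. For the other 7 lists r lay between -0.25 and 0.27. In immobilized Sesn1KO muscle the macrophage markers summed to 180, 335, 60.3 and 96.2 in replicates 1 to 4, so the library with the highest metallothionein values also had the highest sum, and the one with the lowest values the lowest. In immobilized Sesn2SkM-Tg muscle they summed to 127, 255, 89.2 and 150, with the maximum in the library of the maximal Mt1 and Mt2. The same held for immobilized WT muscle of set 1, with sums of 201, 197 and 380. It did not hold in immobilized Sesn1SkM-Tg muscle (148, 412 and 406), where Mt1 and Mt2 were highest in replicate 3. In immobilized WT muscle of set 2 the sums were 165, 110, 116 and 217, and replicate 2, with the highest Mt2, had the lowest sum. In basal Sesn2SkM-Tg muscle, replicate 4, where Mt2 was at 33.6, had a sum of 53.4, within the range of the other 3 (42.1 to 54.8). The part of these markers in the result was not tested.

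The remaining metallothioneins and the genes of zinc handling were examined next. Mt3, the form best known from brain, was listed at 0.0357 to 2.75 normalized counts in all libraries but immobilized Sesn1KO replicate 2 (21.2), and it passed in none of the comparisons by limma. Mt4, the form of stratified epithelia, was not analysed here. Mtf1, which encodes the metal-sensing factor, fell by 0.45 in immobilized WT muscle of set 1 (limma adjusted p = 0.049) and by 0.63 in immobilized Sesn1SkM-Tg muscle (adjusted p = 0.0067), and did not pass in denervated muscle (0.23, adjusted p = 0.13) or in the other immobilized muscles. Slc30a1, a zinc exporter and a known MTF1 target, rose by 0.51 in immobilized Sesn2SkM-Tg muscle (limma adjusted p = 0.014) and passed neither in the other immobilized groups nor in denervated muscle (0.05, adjusted p = 0.83).

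Of the 20 zinc transport and sensing genes tested, 7 were higher and 5 lower in denervated muscle, which is 60% beside the 55.5% of all genes, with a median difference of 0.26 (all genes, -0.03). With each library scaled to the same sum, which moved the median of all genes to 0.35, the counts were 14 and 3. Slc30a2, an exporter of zinc into vesicles, fell by 1.58, and Slc39a11, a zinc importer, rose by 1.27 (limma adjusted p = 2.0e-05 and 6.7e-07). In immobilized WT muscle 1 was higher and 5 lower in set 1 (30% beside 29.3%), and 4 were higher and 4 lower in set 2 (40% beside 33.9%), but with equal library sums (median of all genes 0.28) the counts of set 1 turned to 7 higher and 2 lower. Slc39a2 fell by 0.998 in set 1 and by 0.87 in set 2 (limma adjusted p = 0.00053 and 0.00041). Its means were low, at 1.54 (basal) and 0.265 (immobilized) normalized counts in set 1, and 1.55 and 0.390 in set 2. Of the 20 copper and iron handling genes, 6 were higher and 6 lower in denervated muscle (60% beside 55.5%). The counts were 3 and 3 in immobilized WT muscle of set 1 (30% beside 29.3%), and 4 and 7 in set 2 (55% beside 33.9%). Equal library sums turned these counts to 12 and 2, 6 and 2, and 5 and 4. The ferritin light chain Ftl1 rose by 1.80 and 1.46 in the first pair of comparisons, and the transferrin receptor Tfrc fell by 1.86 and 1.52 (limma adjusted p from 2.2e-10 to 0.0017).

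Oxidative stress, cytokines and glucocorticoids were represented by a list each. Of the 17 genes of the NRF2 and glutathione list, 14 were higher and 1 was lower in denervated muscle (88.2% beside 55.5% of all genes, median 1.21), 9 and 1 in immobilized WT muscle of set 1 (58.8% beside 29.3%, median 0.66) and 12 and 1 in that of set 2 (76.5% beside 33.9%, median 0.54). Led by Hmox1, with Srxn1, which repairs oxidized peroxiredoxins, at 2.92 (limma adjusted p = 1.8e-09), the denervated list included 1 gene that fell, Sod2, the mitochondrial superoxide dismutase (-1.45). Srxn1 also rose by 1.95 and 1.47 in immobilized WT muscle of sets 1 and 2 (limma adjusted p = 0.00037 and 7.2e-05). Of the IL6-STAT3 and acute phase list, 8 of 15 genes were higher and 2 lower in denervated muscle (66.7% beside 55.5%, median 0.82), 9 of 16 higher and none lower in immobilized WT muscle of set 1 (56.2% beside 29.3%, median 0.98) and 7 of 15 higher and 1 lower in set 2 (53.3% beside 33.9%, median 0.74). Junb, an AP-1 factor, rose by 2.83 in denervated muscle and Serpina3n, a secreted protease inhibitor, by 4.36 in immobilized WT muscle of set 1 (limma adjusted p = 3.0e-07 and 7.6e-06). Of the 16 glucocorticoid response genes, 4 were higher and 5 lower in denervated muscle (56.2% beside 55.5%, median -0.21), 7 and 3 in immobilized WT muscle of set 1 (62.5% beside 29.3%, median 0.29), and 6 and 1 in set 2 (43.8% beside 33.9%, median 0.37). Equal library sums turned the counts of this list to 6 and 4 after denervation and to 8 and 0 for set 1 immobilization. Its set 2 counts stayed at 6 and 1. The same scaling gave the NRF2 and glutathione list 15 and 1 (denervated), 12 and 1 (immobilized, set 1) and 14 and 1 (immobilized, set 2). For the IL6-STAT3 and acute phase list only the denervated counts moved, to 8 and 0. Cebpd, a C/EBP factor, rose by 1.32 and 1.62 in immobilized WT muscle of sets 1 and 2 (limma adjusted p = 0.0013 and 0.0030). Zbtb16, a glucocorticoid-induced zinc-finger factor, fell by 2.30 in denervated muscle (limma adjusted p = 1.9e-10). Errfi1, of the same list, rose by 1.86 in denervated muscle (limma adjusted p = 2.6e-09).

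In the immobilized mutants, in the order Sesn1SkM-Tg, Sesn2SkM-Tg and Sesn1KO, 34.7%, 30.7% and 37.1% of all genes passed. Of the 17 genes of the NRF2 and glutathione list, 8 were higher and 1 lower, 7 and 1, and 14 and 1 (52.9%, 47.1% and 88.2%). Of the IL6-STAT3 and acute phase list, 9 and 0 of 16, 12 and 0 of 16, and 7 and 1 of 15 passed (56.2%, 75% and 53.3%), and of the 16 glucocorticoid response genes 3 and 2, 9 and 1, and 9 and 1 (31.2%, 62.5% and 62.5%). The zinc list had 2 and 5, 2 and 5, and 4 and 5 of 20 genes (35%, 35% and 45%) and the copper and iron list 2 and 4, 2 and 3, and 2 and 8 of 20 (30%, 25% and 50%), several of them near the share of all genes. With equal library sums, all of these lists had other counts in at least 1 of the mutants. The zinc list turned to 7 and 4, 5 and 4, and 5 and 3, the copper and iron list to 6 and 2, 7 and 3, and 4 and 6, the NRF2 and glutathione list to 12 and 1, 13 and 1, and 14 and 1, the IL6-STAT3 and acute phase list to 11 and 0, 14 and 0, and 8 and 1, and the glucocorticoid response list to 5 and 1, 11 and 1, and 10 and 1.

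**Figure D5:**
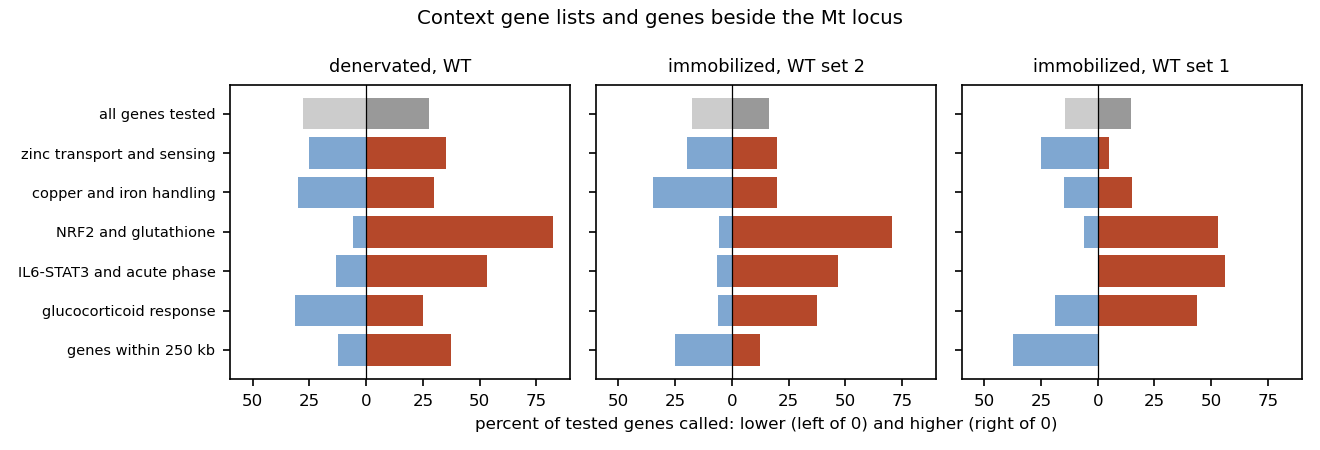
Percent of the tested genes of each list called higher (right of 0) and lower (left of 0) in denervated WT muscle and in immobilized WT muscle of both sets, with all genes tested in grey. The NRF2 and glutathione list has the longest bar to the right in denervated muscle, 14 of 17 genes, where all genes are split about evenly.

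The neighbours of the pair passed in both directions. Of the 8 other measured genes within 250 kb of the pair, including Mt3, 3 were higher and 1 lower in denervated muscle (50% beside 55.5% of all genes), none higher and 3 lower in immobilized WT muscle of set 1 (37.5% beside 29.3%), and 1 higher and 2 lower in set 2 (37.5% beside 33.9%). Equal library sums turned these counts to 5 and 0, 2 and 1, and 3 and 0, so the falls in denervated muscle and in set 2 given here were not called with that scaling. Nup93, a nuclear pore protein, rose by 1.06 in denervated muscle and 0.88 in immobilized WT muscle of set 2 (limma adjusted p = 1.9e-06 and 6.6e-05). Ogfod1, a ribosomal prolyl hydroxylase, fell by 0.68 in immobilized WT muscle of set 1 and by 0.34 in that of set 2, and rose by 0.48 in denervated muscle (limma adjusted p = 0.0063, 0.018 and 0.00072). Gnao1, a G protein subunit, fell by 0.83 in denervated muscle (adjusted p = 0.0045), and Bbs2 by 0.78 in immobilized WT muscle of set 1 (adjusted p = 0.0028). Herpud1, of the endoplasmic reticulum stress response, rose by 0.49 in denervated muscle (adjusted p = 0.0013), and Nudt21 passed in none of these 3 comparisons.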

How the data were processed

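RNAseq values of TA muscle were analysed in 42 libraries, grouped by the sample labels. According to the study's methods and processing notes, the authors prepared libraries with a NEBNext Ultra kit, which does not mark strand, checked reads with FastQC, trimmed them with Cutadapt 1.7.1 (reads under 30 bases were dropped), quantified them with RSEM 1.2.20 against the GRCm38 transcriptome (release 76) before normalization in limma. The signal the authors deposited is a normalized count per gene and library, not log-transformed, with no value at 0 (the lowest is 0.00476). Depth is unknown, so counting error is not given. RSEM divides reads shared by several transcripts by estimate.

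A gene was tested in a set if any of its libraries reached a value of 1, log2(value + 1) was fitted over all groups of the set in limma 3.58.1 (R 4.3.3; lmFit, eBayes with a trend), and two-sided p-values received a Benjamini-Hochberg adjustment over all genes tested in that comparison. Calls required an adjusted p under 0.05 together with a change of 0.25 or more (log2, either direction), the study's thresholds. The 95% intervals come from the same fit. Permutation tests over libraries were written in Python 3.11.15, and figures used matplotlib 3.10.9. Pearson's r and Spearman's rho of Mt1 and Mt2 came from scipy 1.17.1. The fit was tested on simulated data.

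The members, gene lists, motifs and tests were chosen with earlier results of these data known. The text names Mt1 and Mt2, Sesn1 as a check of the labels, Mtf1, Slc30a1, Mt3 and Mt4, up to 2 called genes of each list and comparison described in detail (those with the largest change), measured genes within 250 kb, and the 5 most similar genes within and across groups. Slc39a14 was described further, and Sod2 was named as the only gene of its list that fell, after their values were seen. Positions and transcript lengths are from GENCODE M21, which matched 13715 of the 13809 genes, and promoter windows from RefSeq, whose start sites differ from those of GENCODE. Alternatives were quantile normalization, pseudocounts of 0 and 0.1, dropping the filter or asking for 3 libraries, median centring, scaling to an equal library sum, eBayes without a trend, only the compared groups, the replicate number as a block, each library left out, and other length corrections for the ratio.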

Additional observations from a re-analysis of the deposited data

Results flagged for a closer look

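Single libraries far from the rest of their group of 4 were sought among 36 sets of values (Mt1, Mt2, Mt3 and the Mt2 to Mt1 ratio in the groups of 4), by setting the gap to the nearest other library against the range of the group. The rule assumes normally distributed values, of which it flags about 1 in 20 sets by chance. It was applied here to values that were not log-transformed, and the sets share libraries. The 8 flagged sets are therefore not set against that rate. Immobilized Sesn1KO replicate 2 stood apart for all 3 genes, with 349 normalized counts of Mt1 (the other libraries reached 67.6), 455 of Mt2 (67.4) and 21.2 of Mt3 (0.959). Its macrophage marker sum of 335 was also the highest of its group.

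Basal Sesn2SkM-Tg replicate 4 stood apart with 33.6 normalized counts of Mt2 (the other libraries reached 7.08) and a Mt2 to Mt1 ratio of 1.35 (0.385). Its Mt1 value of 26.7 did not stand apart. Basal WT replicate 3 of set 2 stood apart with 3.74 normalized counts of Mt2 (1.37) and a ratio of 0.661 (0.284), and its macrophage marker sum of 141 was the highest of the basal WT libraries of its set, the others reaching 59.2. Denervated WT replicate 2 stood apart with 52.6 normalized counts of Mt1 (29.1). The cause was not tested for any of these libraries.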

How the results depend on the processing

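Read depth is unknown, and 3 or 4 libraries a group set the precision. Of 713 alternative values of the members and their ratio, 685 kept their direction and, where tested, their side of the threshold. A difference that stayed short of the threshold counted as kept. Immobilized against basal muscle had no threshold, so there a shift under the pooled SD within groups counted as kept. On the log2 scale this SD was 0.88 for Mt1, 1.01 for Mt2 and 0.58 for the ratio. Both genes stayed higher in denervated muscle in every alternative fit, with limma differences without 1 library of 3.53 to 4.12 for Mt2 and 2.09 to 2.44 for Mt1. For the other changes the cause was not tested. Mt1 in basal Sesn2SkM-Tg against WT muscle passed with a pseudocount of 0.1 (1.94) or 0 (1.97; limma adjusted p = 0.034 for each), with the replicate number as a block (1.72, adjusted p = 0.027) and in the exact permutation test before adjustment (1.72, as did Mt2 at 1.65). Without 1 library it ranged from 1.43 to 1.99, passing without Sesn2SkM-Tg replicate 1 or WT replicate 4 (adjusted p = 0.042 and 0.022). Mt2 in basal Sesn1KO against WT muscle turned to -0.0023 with equal library sums.

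With 1 library left out, differences ranged from -0.10 to 0.29 for Mt2 in basal Sesn1KO against WT muscle, from -1.43 to 0.17 for Mt2 and -1.53 to 0.11 for Mt1 in the immobilized pair, from -1.45 to 0.15 and -1.24 to 0.40 for the difference in response, from 2.33 to 3.97 for Mt1 in immobilized against basal Sesn1KO muscle, and from -0.90 to 0.054 for Mt2 in immobilized Sesn1SkM-Tg against WT muscle. The log2 ratio of Mt2 to Mt1 ranged from 1.85 to 2.38 for denervation (exact permutation p = 0.057 with 3 denervated libraries). It ranged from -0.084 to 0.61 for basal Sesn1SkM-Tg, -0.35 to 0.39 for basal Sesn2SkM-Tg and -0.33 to 0.067 for immobilized Sesn2SkM-Tg muscle. Its median over all libraries was 1.05 on principal transcripts and 2.06 on all exons, a length chosen after seeing the data.

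In none of 12 comparisons were all correlations of same-numbered libraries over 0.1, so the numbers were not taken to pair them. All were above 0 for immobilized against basal Sesn1SkM-Tg (0.080 to 0.171) and Sesn2SkM-Tg muscle (0.021 to 0.143), where 6 of 6 and 6 of 8 libraries correlated best with their own number. The block moved the genes called from 403 to 229 in immobilized Sesn2SkM-Tg against WT muscle, from 3 to 0 for the Sesn1KO and from 1 to 0 for the Sesn2SkM-Tg difference in response. Fitting only the compared groups left 14 of 129 calls in number for immobilized Sesn1KO, 103 against 343 for basal Sesn2SkM-Tg and 1 against 4 for basal Sesn1SkM-Tg muscle. Quantile normalization gave 2 against 1 for immobilized Sesn1SkM-Tg muscle and 5 against 3 for the Sesn1KO difference in response, and eBayes without a trend gave 2 against 1 for that of Sesn2SkM-Tg. Without 1 library, calls ranged from 40 to 608 for immobilized Sesn1KO (40 without WT replicate 2), 156 to 1027 for basal and 112 to 316 for immobilized Sesn2SkM-Tg against WT muscle, and fell to 2020 of 4018 for immobilization of WT muscle in set 1 without immobilized replicate 3 and to 2791 of 4756 for that of Sesn1SkM-Tg muscle without its immobilized replicate 3. The Sesn1KO difference in response ranged from 0 to 14 calls and that of Sesn2SkM-Tg from 0 to 5. With equal library sums, the higher share of calls went from 50.1% to 77.1% for denervation, from 50.7% to 84.7% and 47.7% to 64.3% for immobilization of WT muscle in sets 1 and 2, 52.3% to 82.6% in Sesn1SkM-Tg, 48.9% to 80.4% in Sesn2SkM-Tg and 46.4% to 60.1% in Sesn1KO muscle, 55.8% to 44.8% for immobilized Sesn1KO and 56.1% to 43.2% for immobilized Sesn2SkM-Tg against WT muscle, and from 60.1% to 50% for basal Sesn2SkM-Tg muscle with median centring.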
